A study of Homo sapiens with 9 samples.

Results

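Transcripts of 9 genes that write, maintain and remove DNA methylation were followed in Jurkat, a human cell line from a T-cell acute lymphoblastic leukaemia, with and without editing of EZH2. The genes were taken by symbol from the deposited expression table: the dioxygenases TET1, TET2 and TET3, the methyltransferases DNMT1, DNMT3A and DNMT3B, the recruiting factor UHRF1, and the glycosylases TDG and MBD4. All 9 were found among the 26190 genes with values and all 9 were among the 11737 genes tested. The study compared the unedited line, whose EZH2 status is given as WT, with the CRISPR/Cas9-edited lines EZH2-KO1 and EZH2-KO2. Each line was sequenced in 3 libraries, described as biological triplicates, from exponentially growing cultures in complete RPMI medium with serum and antibiotics, with no drug named for any sample. Each edited line is a single line, and the sources used here do not say whether it came from 1 cell, so p-values cover variation among cultures of a line rather than among independent edits.

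DNA methylation is placed on cytosines, mostly in CpG dinucleotides. DNMT3A and DNMT3B methylate sites de novo, while DNMT1 copies the mark after replication, brought to half-methylated DNA by UHRF1. TET enzymes oxidise methylcytosine with oxygen, iron and 2-oxoglutarate, TDG excises the more oxidised bases, and MBD4 removes the mismatched bases left when cytosine or methylcytosine is deaminated. EZH2 methylates histone H3 within Polycomb repressive complex 2, and the mark it leaves often occupies CpG islands that lack DNA methylation, and DNMT3A and TET2 are recurrently mutated in T-cell malignancies.

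Values are FPKM, in which fragments are corrected for gene length and for the size of the library, so levels of different genes can be set side by side. They are given for each library or as mean ± SD (n = 3). Log2 fold changes (± SE) were taken after adding 1 FPKM, the log2(FPKM + 1) scale, so changes of genes with low levels are understated. A gene was called changed at a Benjamini-Hochberg adjusted p under 0.05 in a limma fit over all tested genes. Depth in reads is unknown; steps between low values put relative depths at 0.965 to 1.16 of that of WT replicate 3. No 2 libraries held identical values; correlations of log2(FPKM + 1) were at least 0.989 within a line, and at most 0.953 between WT and an edited line. The 10 listed T-cell markers were at 1 FPKM or more in all 9 libraries, while 5 of 6 B-cell, 6 of 7 myeloid and 5 of 6 erythroid and platelet markers were under 1 in all 9. Of the T-cell markers, KO1 had 3 rises and 7 falls and KO2 had 3 rises and 5 falls. Over all tested genes 67.5% were called in KO1 and 64.7% in KO2. In both lines 6 of the 10 were called in the same direction. CD3E and CD2 were called in opposite directions, CD2 going from 35.8 FPKM in WT to 90.6 in KO1 and 4.38 in KO2. In bulk RNA, fewer cells with a transcript and less transcript per cell cannot be told apart. The EZH2 transcript itself was present in every library and higher in the edited lines, at 77.2 ± 2.54, 106 ± 2.5 and 89.5 ± 1.4 FPKM for WT, KO1 and KO2. A level over the whole transcript does not check an edit, so directions rest on the labels.

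The 250 bases before the annotated start are shown for 4 genes that differ in how they moved: TET1, which was lower in both edited lines, TET3 and TDG, which were higher in both, and DNMT3B, which was higher in KO1. Sequences are from RefSeq on GRCh38.p14, 5′ to 3′, with each CpG in capitals, because CpG is the substrate of these enzymes. Where a gene has several annotated starts the first one listed is printed, and gene-level values cannot show which start was used.
TET1, chr10:68560087-68560336, plus strand: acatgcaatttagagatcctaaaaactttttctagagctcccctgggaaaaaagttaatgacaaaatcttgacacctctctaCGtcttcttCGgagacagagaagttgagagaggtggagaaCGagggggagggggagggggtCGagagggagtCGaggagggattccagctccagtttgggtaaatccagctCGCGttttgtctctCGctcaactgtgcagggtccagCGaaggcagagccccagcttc
TET3, chr2:73984660-73984909, plus strand: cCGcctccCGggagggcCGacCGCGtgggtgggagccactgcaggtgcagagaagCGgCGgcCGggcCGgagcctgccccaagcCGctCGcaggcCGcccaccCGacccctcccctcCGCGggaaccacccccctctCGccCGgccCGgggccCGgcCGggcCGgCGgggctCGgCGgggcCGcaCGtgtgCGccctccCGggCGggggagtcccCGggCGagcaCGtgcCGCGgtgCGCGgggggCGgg
DNMT3B, chr20:32779602-32779851, plus strand: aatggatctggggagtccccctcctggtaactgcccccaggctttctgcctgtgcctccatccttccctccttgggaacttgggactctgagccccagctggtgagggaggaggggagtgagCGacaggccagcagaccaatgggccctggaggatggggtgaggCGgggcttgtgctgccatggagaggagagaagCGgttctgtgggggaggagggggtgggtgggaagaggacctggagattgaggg
TDG, chr12:103965622-103965871, plus strand: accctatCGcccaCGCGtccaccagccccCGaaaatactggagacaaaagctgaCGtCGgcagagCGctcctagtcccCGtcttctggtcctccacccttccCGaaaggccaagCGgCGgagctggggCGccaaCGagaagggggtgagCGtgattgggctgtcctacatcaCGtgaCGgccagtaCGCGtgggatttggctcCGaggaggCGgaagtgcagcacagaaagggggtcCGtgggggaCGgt
The windows held 9 CpGs for TET1, 37 for TET3, 3 for DNMT3B and 22 for TDG. Of 35116 windows of that length before annotated starts, 54.1% held at least as many CpGs as the TET1 window, 4% as the TET3 window, 77.1% as the DNMT3B window and 28% as the TDG window. CpG is its own reverse complement, so the count is the same on both strands. All 9 genes matched the table, with 20 windows in all, which held 3 to 41 CpGs, and the other 2 TET1 starts held 4 and 11. The other TET3 start held 27 CpGs, and 17.7% of all windows held at least as many. These counts describe the reference sequence; methylation of these sites was not measured.

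Against WT, the edited lines shared lower TET1 and higher TET3, UHRF1 and TDG, while DNMT3B was higher in KO1 and near its WT level in KO2. In KO1, 5 of the 9 genes rose (TET3, DNMT1, DNMT3B, UHRF1 and TDG), 1 fell (TET1) and 3 were not called. In KO2, 4 rose (TET3, DNMT3A, UHRF1 and TDG), 1 fell (TET1) and 4 were not called. A large share of all tested genes was also called, 67.5% in KO1 (35.6% higher, 31.9% lower) and 64.7% in KO2 (38.1% higher, 26.6% lower), so the number of these genes called is near the background. Of all calls in KO2, 58.9% were higher, against 50.8% after quantile normalization and 52.9% after median centring. The median log2 fold change of the 9 genes was 0.16 in KO1 and 0.09 in KO2, beside 0.02 and 0.06 over all tested genes. The 4 genes called in both lines, TET1, TET3, UHRF1 and TDG, moved the same way in each. Thus 4 of the 9 genes were called in both lines in 1 direction, beside 52.4% of all tested genes. The libraries of the groups compared did not overlap for 7 of the 9 genes in KO1 and 7 in KO2, beside 68.6% and 69.2% of all tested genes. Both comparisons use the same 3 WT libraries.

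**Figure D1:**
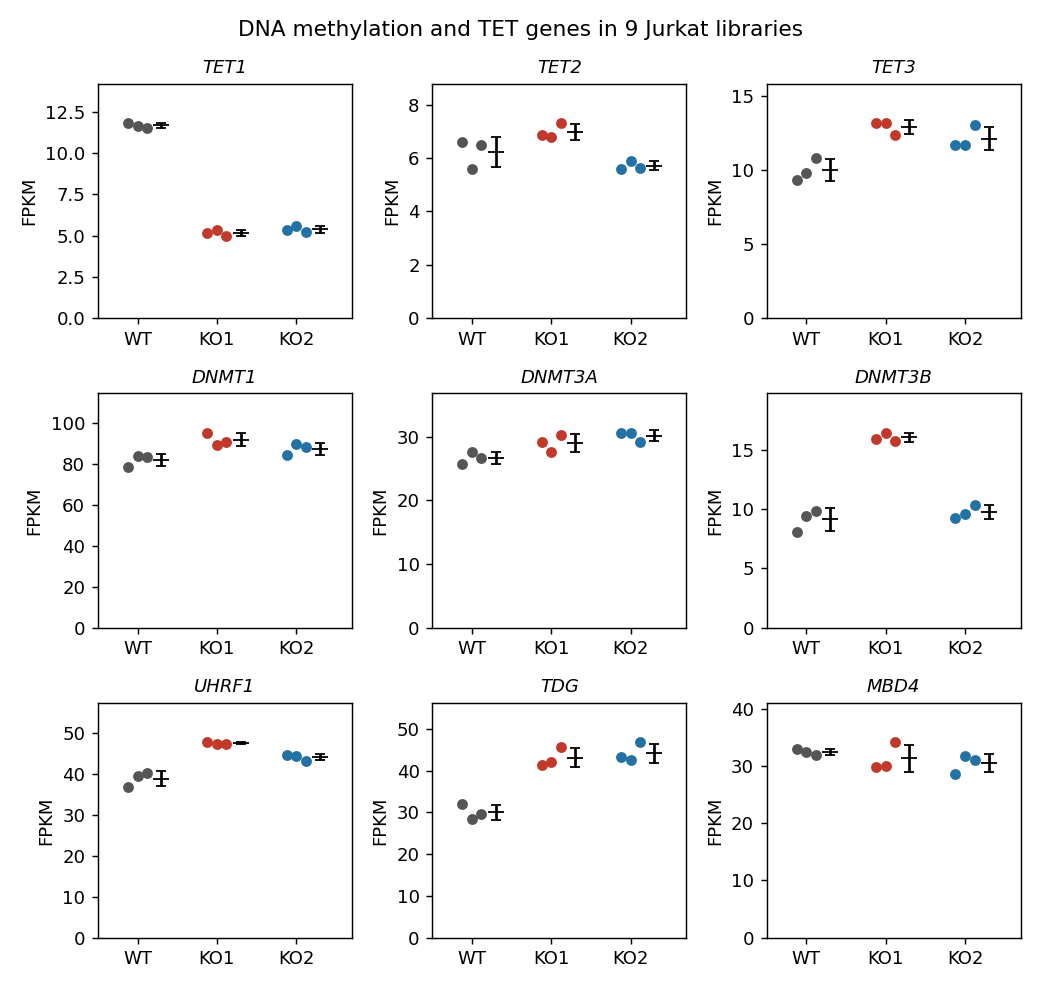
FPKM of each of the 9 genes (vertical axes, starting at 0 and scaled per gene) in the 3 libraries of each line (coloured points), with the mean and SD of each line as a black bar. TET1 in the 6 edited libraries lies below every WT library, and DNMT3B in the 3 KO1 libraries, between 15.7 and 16.4 FPKM, lies above the other 6.

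TET1 carried the largest difference of the 9 genes. It stood at 11.9, 11.7 and 11.6 FPKM in WT replicates 1 to 3, at 5.16, 5.36 and 4.97 in KO1 and at 5.32, 5.60 and 5.21 in KO2. All 6 edited libraries were below all 3 WT libraries, and the edited lines overlapped each other. The mean was 2.26-fold lower in KO1 (log2 fold change -1.04 ± 0.06, limma adjusted p = 6.64e-08) and 2.17-fold lower in KO2 (-0.99 ± 0.06, adjusted p = 1.44e-07). Of all tested genes, 2.68% had a lower log2 fold change than TET1 in KO1 and 2.19% in KO2. Between the edited lines the difference was 0.05 (95% interval -0.08 to 0.17, adjusted p = 0.546). The myeloid marker list was lower as well, and its part in the result was not tested. Its summed level ran from 2.58 to 3.27 FPKM in WT, 1.04 to 1.33 in KO1 and 1.15 to 1.57 in KO2. CD68 made up most of it, at 2.85, 0.88 and 0.982 FPKM in WT, KO1 and KO2, and CD14, LYZ, CSF1R, ITGAM, FCGR3A and MPO were each under 1 in every library.

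TET3, the paralogue next below TET1 in level in the unedited line, went the other way. It stood at 9.36, 9.82 and 10.8 FPKM in WT, at 13.2, 13.2 and 12.4 in KO1 and at 11.7, 11.7 and 13 in KO2. Every edited library was above every WT library, and the edited lines overlapped. The rise was 1.29-fold in KO1 (log2 fold change 0.34 ± 0.07, limma adjusted p = 0.00094) and 1.21-fold in KO2 (0.26 ± 0.07, adjusted p = 0.00585). KO2 minus KO1 was -0.08 (95% interval -0.23 to 0.06, adjusted p = 0.372).

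TET2, which lacks the CXXC DNA-binding domain found in the other family members, was the least expressed TET gene in WT. It stood at 6.61, 5.58 and 6.49 FPKM in WT, at 6.85, 6.77 and 7.32 in KO1 and at 5.61, 5.90 and 5.61 in KO2. All KO1 libraries were just above WT, and KO2 overlapped it. Neither line passed against WT, with log2 fold changes of 0.15 in KO1 (95% interval -0.01 to 0.30, limma adjusted p = 0.0871) and -0.11 in KO2 (-0.26 to 0.05, adjusted p = 0.212). The lines differed from each other, since KO2 was below KO1 in all libraries (log2 fold change -0.25 ± 0.07, adjusted p = 0.0208). That call did not hold without KO1 replicate 3 (adjusted p = 0.0708), KO2 replicate 1 (0.0649) or KO2 replicate 3 (0.0611). The antisense gene TET2-AS1, whose reads could be shared if strand was not used, was at 0.139 FPKM or less.

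The make-up of the TET transcripts differed more between the lines than their total did. Of the summed TET FPKM, TET1 gave 41.9% ± 1.64 (SD, n = 3) in WT, 20.6% ± 0.512 for KO1 and 23.2% ± 1.2 for KO2. TET3 gave 35.8% ± 1.96 in WT, 51.5% ± 1.21 for KO1 and 52.3% ± 2.17 for KO2. The TET1 share ran from 40 to 43.1% in WT libraries and from 20.1 to 24.2% in the edited ones, with no overlap. The sum itself went from 27.9 ± 0.9 FPKM in WT to 25.1 ± 0.366 in KO1 and 23.2 ± 0.612 in KO2, 0.898 and 0.832 of the WT sum. For both quantities each pair of lines gave p = 0.1 in a two-sided exact permutation test, the smallest value that 3 against 3 libraries allow.

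**Figure D2:**
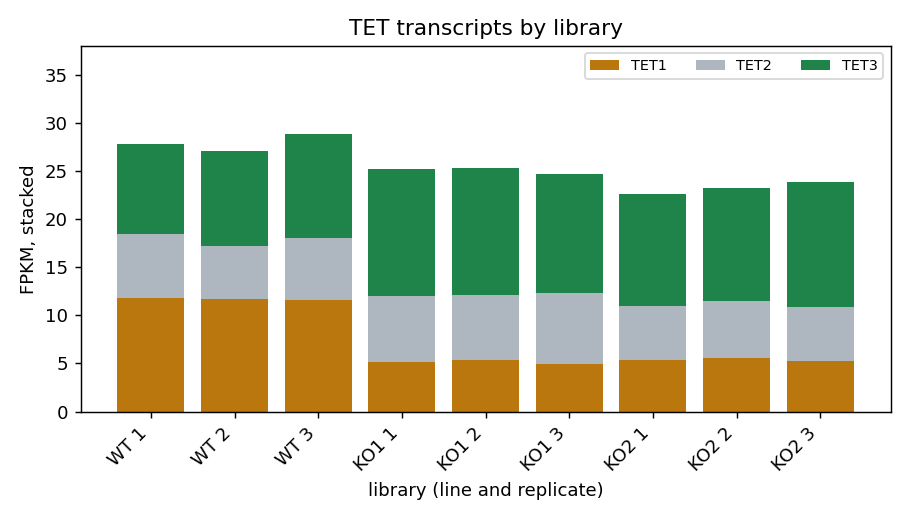
FPKM of TET1, TET2 and TET3 stacked for each of the 9 libraries (horizontal axis, line and replicate number), so that the bar height is the summed TET FPKM. The TET1 segment gives 40 to 43.1% of the bar in WT and 20.1 to 24.2% in the edited lines, while TET3 becomes the largest segment.

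Among the methyltransferases, DNMT3B separated the edited lines. It stood at 8.06, 9.45 and 9.87 FPKM in WT, at 15.9, 16.4 and 15.7 in KO1 and at 9.28, 9.61 and 10.4 in KO2. All KO1 libraries were above the other 6, and KO2 overlapped WT. The rise in KO1 was 1.76-fold (log2 fold change 0.75 ± 0.07, limma adjusted p = 5.37e-06), whereas KO2 differed from WT by 0.09 (95% interval -0.07 to 0.25, adjusted p = 0.3). KO2 was lower than KO1 by a log2 fold change of -0.66 ± 0.07 (adjusted p = 8.76e-05), and 2.04% of all tested genes had a lower value in that comparison. The B-cell marker list was likewise highest in KO1, its part in the result not being tested, with a summed level of 48.9 to 58.4 FPKM beside 24.7 to 29.4 in WT and 19.3 to 22.5 in KO2. CD79A made up most of it, at 27.5, 54.9 and 21 FPKM in WT, KO1 and KO2, PAX5 was at 0 in all 9 libraries, and MS4A1, CD79B and BLNK were each under 1 in every library.

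DNMT3A, the other de novo enzyme, was the more abundant of the pair in every library. It stood at 25.6, 27.6 and 26.7 FPKM in WT, at 29.2, 27.5 and 30.3 in KO1 and at 30.5, 30.6 and 29.1 in KO2. All KO2 libraries were above WT, and KO1 overlapped it. The rise in KO2 was 1.13-fold (log2 fold change 0.17 ± 0.05, limma adjusted p = 0.0107). KO1 stood just outside the threshold (0.12 ± 0.05, adjusted p = 0.0531) and passed without WT replicate 2 (0.14, adjusted p = 0.0447), without KO1 replicate 2 (0.15, adjusted p = 0.0285) or after quantile normalization (0.14, adjusted p = 0.0303). The edited lines differed in DNMT3A by 0.05 (95% interval -0.06 to 0.16, adjusted p = 0.45). DNMT3B gave 35.6% ± 1.63 (SD, n = 3) of the summed DNMT3A and DNMT3B FPKM in KO1, 25.5% ± 1.54 in WT and 24.5% ± 1.57 in KO2. The exact permutation p was 0.1 for KO1 against WT and for KO2 against KO1, and 0.5 for KO2 against WT.

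DNMT1, the maintenance enzyme, had the highest level of the 9 genes in each line, above that of 92.2% of tested genes in WT. It stood at 78.5, 83.8 and 83.3 FPKM in WT, at 95.2, 89.3 and 90.9 in KO1 and at 84.2, 89.8 and 88 in KO2. Every edited library was above every WT library. The rise was 1.12-fold in KO1 (log2 fold change 0.16 ± 0.04, limma adjusted p = 0.0057), and KO2 did not pass (0.09, 95% interval -0.00 to 0.19, adjusted p = 0.0796). The difference between the edited lines was -0.07 (95% interval -0.17 to 0.02, adjusted p = 0.228), so a weaker rise in KO2 than in KO1 was not shown. DNMT1 overlaps S1PR2 on the same strand in the annotation, and S1PR2 was at 1.88 to 2.39 FPKM.

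UHRF1 stood at 36.8, 39.5 and 40.4 FPKM in WT, at 47.8, 47.5 and 47.5 in KO1 and at 44.8, 44.6 and 43.3 in KO2. The 3 lines did not overlap, with WT lowest and KO1 highest. UHRF1 rose in both lines, 1.22-fold in KO1 (log2 fold change 0.29 ± 0.04, limma adjusted p = 0.000144) and 1.14-fold in KO2 (0.18 ± 0.04, adjusted p = 0.00341). KO2 minus KO1 was -0.10 ± 0.04 (adjusted p = 0.0877) and passed without WT replicate 1 (-0.10, adjusted p = 0.0373) or with each library centred on its median (-0.14, adjusted p = 0.0281). The summed FPKM of DNMT1, DNMT3A and DNMT3B was 118 ± 4.74, 137 ± 3.52 and 127 ± 3 for WT, KO1 and KO2, with an exact permutation p of 0.1 for each pair.

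Of the glycosylases, TDG rose in both lines and MBD4 was not called in either. TDG stood at 32, 28.4 and 29.6 FPKM in WT, at 41.4, 42.1 and 45.6 in KO1 and at 43.3, 42.4 and 46.7 in KO2, with every edited library above WT. The rise was 1.43-fold in KO1 (log2 fold change 0.51 ± 0.06, limma adjusted p = 2.12e-05) and 1.47-fold in KO2 (0.54 ± 0.06, adjusted p = 1.52e-05). The lines differed by 0.04 (95% interval -0.09 to 0.16, adjusted p = 0.677). TDG has an annotated processed pseudogene, TDGP1, and TET1 has TET1P1, so reads could be shared with these copies.

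MBD4 stood at 33, 32.5 and 31.9 FPKM in WT, at 29.9, 29.9 and 34.1 in KO1 and at 28.7, 31.7 and 31.1 in KO2. KO1 overlapped WT, while all KO2 libraries were slightly below it. The log2 fold change was -0.05 in KO1 (95% interval -0.18 to 0.08, limma adjusted p = 0.45) and -0.09 in KO2 (-0.22 to 0.04, adjusted p = 0.209). The edited lines differed by -0.04 (-0.17 to 0.09, adjusted p = 0.677). MBD4 overlaps IFT122 on the opposite strand, at 10.5 to 15.7 FPKM, and the strandedness of the counting is not given in the sources used here.

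The order of the 9 levels differed between the lines. In WT it ran DNMT1, UHRF1, MBD4, TDG, DNMT3A, TET1, TET3, DNMT3B and TET2, and the neighbours MBD4 and TDG, and TET3 and DNMT3B, overlapped. In KO1 it ran DNMT1, UHRF1, TDG, MBD4, DNMT3A, DNMT3B, TET3, TET2 and TET1, and MBD4 and DNMT3A overlapped. In KO2 it ran DNMT1, UHRF1, TDG, MBD4, DNMT3A, TET3, DNMT3B, TET2 and TET1, where UHRF1 and TDG, and MBD4 and DNMT3A, overlapped. TET1 was thus the sixth in WT and the last in both edited lines, although in KO2 its highest library (5.60 FPKM) nearly met the lowest of TET2 (5.61).

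Set directly against each other, the edited lines differed in 2 of the 9 genes, TET2 and DNMT3B, both lower in KO2. Their libraries, and those of UHRF1, did not overlap between KO1 and KO2, so that 3 of the 9 genes were separated, beside 47.4% of all tested genes. Over all tested genes 30.6% were called in this comparison, 18.3% higher and 12.4% lower in KO2. Of all calls 59.7% were higher in KO2, against 49% after quantile normalization and 47.9% after median centring, and under both scalings the calls for TET2 and DNMT3B kept their direction. The median log2 fold change was -0.07 over the 9 genes and 0.04 over all tested genes.

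**Figure D3:**
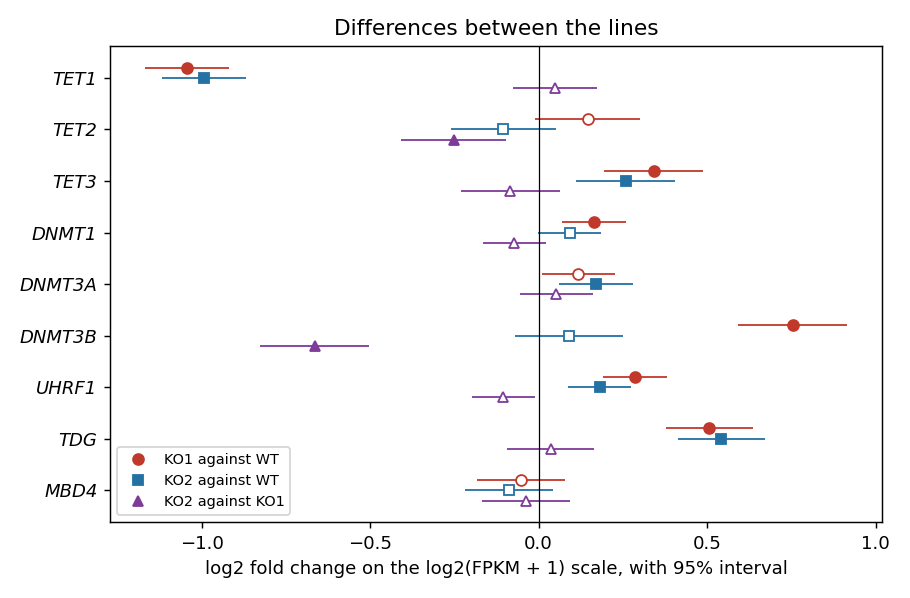
Log2 fold change of each gene on the log2(FPKM + 1) scale (horizontal axis) with its 95% interval, for KO1 against WT (circles), KO2 against WT (squares) and KO2 against KO1 (triangles). Filled symbols passed an adjusted p under 0.05; TET1 lies near -1 in both edited lines, and DNMT3B and TET2 are the filled triangles.

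Genes with the most similar pattern over the 9 libraries were sought for the gene of each family with the largest mean change, by the correlation of log2(FPKM + 1) among 8724 other genes averaging at least 5 FPKM. For TET1 these were CD1E, a lipid antigen-presenting molecule (r = 0.999), PFKFB4, a regulator of glycolysis (0.998), and DNTT, the terminal transferase of antigen receptor rearrangement (0.998). For DNMT3B they were DTYMK (0.986), HES6 (0.983) and ABCF1 (0.981), and for TDG they were NAA50, PPIL1 and CCAR1 (0.993 each). The points share the same 3 lines, and 644 genes correlated above 0.95 with TET1, 628 with TDG and 21 with DNMT3B. CD1E fell far more than TET1, from 174 FPKM in WT to 6.59 in KO1 and 8.55 in KO2.

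Genes that work beside these 9 were counted from lists, to be read against the 67.5% and 64.7% of all tested genes called in KO1 and KO2. Of 9 tested partners of maintenance and de novo methylation, KO1 had 4 that rose and 2 that fell, and KO2 had 3 of each. ZBTB24, a zinc finger protein mutated in the ICF immunodeficiency syndrome with hypomethylated satellite DNA, went from 11 ± 0.156 FPKM in WT to 21.3 ± 0.477 in KO1 and 18 ± 1.82 in KO2 (log2 fold changes 0.90 and 0.66). UHRF2, the paralogue of UHRF1, fell where UHRF1 rose, from 34.6 ± 3.19 to 26.8 ± 2.65 and 24.8 ± 1.11 FPKM. USP7, a deubiquitinase that binds DNMT1 and UHRF1, fell from 151 ± 3.41 to 110 ± 1.72 and 120 ± 0.721. TRDMT1, a relative of the DNMT family that methylates transfer RNA, rose from 1.98 ± 0.108 to 3.12 ± 0.141 and 3.68 ± 0.223.

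Of 14 tested proteins that bind methylated or unmethylated CpG, or belong to complexes with one, KO1 had 6 rises and 6 falls and KO2 had 6 rises and 5 falls. MBD3 and GATAD2A, subunits of the NuRD complex, rose in both lines, MBD3 from 18.4 ± 2.04 to 25.2 ± 2.01 and 29.1 ± 0.883 FPKM and GATAD2A from 32.7 ± 1.9 to 52.5 ± 3.63 and 54.2 ± 1.53. Of other NuRD subunits in the list, MBD2 rose in both lines (log2 fold changes 0.22 and 0.30) and GATAD2B fell in both (-0.37 and -0.34). CXXC5, which can bind unmethylated CpG, rose from 0.517 ± 0.328 to 2.89 ± 0.249 and 1.32 ± 0.0729 FPKM. It passed the filter only through edited libraries, so a call against WT could only be a rise. CXXC1, a subunit of the SET1 histone methyltransferase complex, rose from 21.1 ± 3.72 to 30 ± 2.59 and 26.6 ± 1.35, and its KO2 call was lost without WT replicate 1 (limma adjusted p = 0.0572) or KO2 replicate 2 (0.0657).

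Of 14 tested TET partners and genes of 2-oxoglutarate metabolism, KO1 had 5 rises and 6 falls and KO2 had 3 rises and 7 falls, with medians of -0.03 and -0.16. OGT, the O-GlcNAc transferase that binds TET proteins, fell from 64.9 ± 1.43 FPKM in WT to 42.3 ± 0.8 in KO1 and 48.8 ± 0.254 in KO2. The isocitrate dehydrogenase genes IDH2 and IDH3G, whose enzymes make 2-oxoglutarate in mitochondria, fell too. IDH2 went from 288 ± 9.34 to 178 ± 2.06 and 197 ± 3.77 FPKM, and IDH3G from 37 ± 2.51 to 21 ± 0.472 and 25.8 ± 0.448. In the same list IDH3A also fell in both lines, while IDH3B was not called in either. IDH1 went opposite ways, rising in KO1 (log2 fold change 0.14) and falling in KO2 (-0.39). GLUD1, another gene of 2-oxoglutarate metabolism, rose from 56.4 ± 2.27 to 68.4 ± 1.98 and 69.2 ± 0.659. D2HGDH, which removes 2-hydroxyglutarate, went from 3.48 ± 0.242 to 2.55 ± 0.664 and 2.49 ± 0.562, close to the threshold (limma adjusted p = 0.0463 and 0.0381). Leaving out any one WT library lost its call in KO1 (adjusted p = 0.0566, 0.0863 and 0.124), as did leaving out KO1 replicate 1 (0.134), KO1 replicate 2 (0.164) or KO2 replicate 3 (0.0584). In KO2 it was lost without WT replicate 2 (0.0737), WT replicate 3 (0.105), KO2 replicate 1 (0.139) or KO2 replicate 3 (0.101), and with no filter on low values neither call held (0.0953 and 0.0846).

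Of 16 tested genes of base excision repair, which completes the work of TDG, KO1 had 8 rises and 4 falls and KO2 had 7 rises and 4 falls. UNG, the uracil glycosylase, rose from 46.7 ± 3.04 FPKM to 72.5 ± 2.7 and 62.7 ± 1.63. NEIL3, another glycosylase, fell from 44.3 ± 1.28 to 32.6 ± 0.947 and 33.7 ± 1.05, and the scaffold XRCC1 from 32.8 ± 4.69 to 20.7 ± 0.64 and 23.3 ± 0.626. GADD45B rose from 3.7 ± 1.07 to 5.9 ± 0.567 and 5.3 ± 0.483, and its KO2 call was lost without WT replicate 2 (limma adjusted p = 0.0626), without KO2 replicate 3 (0.0664) or after quantile normalization (0.0635).

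Of 12 tested genes supplying S-adenosylmethionine, the methyl donor, KO1 had 4 rises and 4 falls and KO2 had 5 rises and 3 falls. MAT2A, the synthetase that makes it outside the liver, rose from 81.3 ± 1.16 FPKM to 182 ± 10.7 and 163 ± 6.75 (log2 fold changes 1.15 ± 0.05 and 0.99 ± 0.05, limma adjusted p = 9.54e-09 and 4.3e-08). Its liver counterpart MAT1A rose from 0.436 ± 0.0512 to 3.05 ± 0.44 and 1.61 ± 0.322. MAT1A passed the filter only through edited libraries, so a call against WT could only be a rise. MTRR, which reactivates methionine synthase, rose from 13.6 ± 0.278 to 19.6 ± 0.107 and 21.6 ± 1.44.

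UHRF1 and DNMT1 transcripts are known to rise in S phase, so genes of that phase were counted as well. Of 21 tested, KO1 had 8 rises and 5 falls and KO2 had 9 rises and 7 falls, with medians of 0.07 and 0.04. Their summed level ran from 2040 to 2098 FPKM in WT, 2008 to 2059 in KO1 and 1872 to 1910 in KO2. A single gene of the list reached 641 FPKM, so the sum is weighted to the genes of highest level. The licensing factor CDT1 fell from 40.2 ± 2.99 to 19.7 ± 2.64 and 20.3 ± 0.81 FPKM. The cyclins CCNE1 and CCNE2 rose, CCNE1 from 3.79 ± 0.225 to 6.68 ± 0.339 and 6.61 ± 0.609 and CCNE2 from 20.4 ± 1.13 to 30.2 ± 1.3 and 24.6 ± 1.14. Whether cell cycle phase differed between the cultures was not tested.

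**Figure D4:**
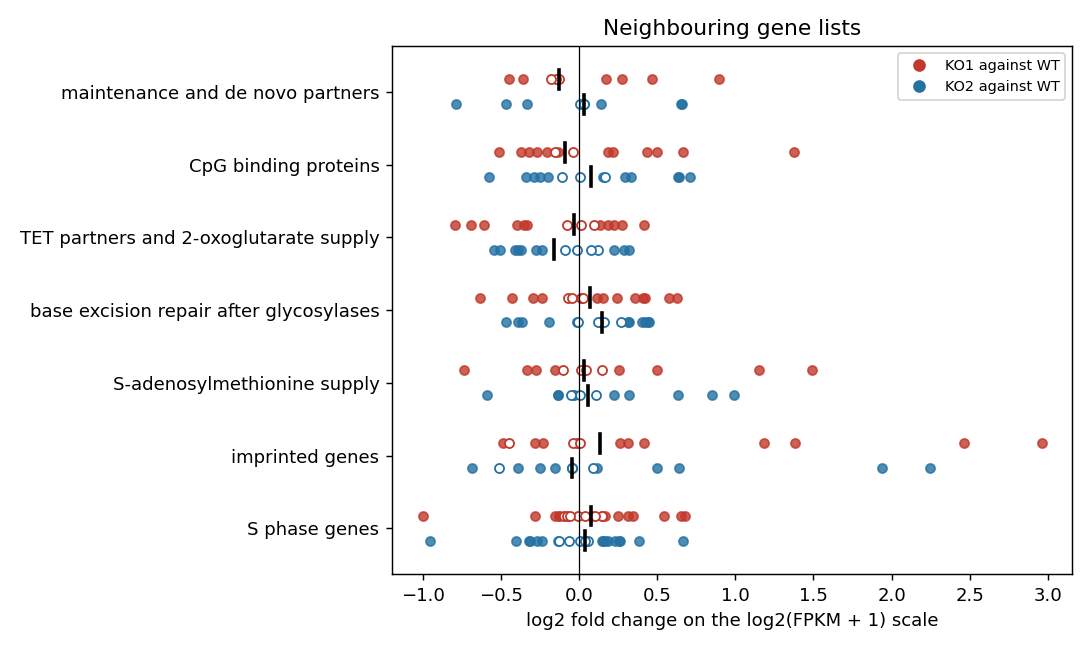
Log2 fold change on the log2(FPKM + 1) scale (horizontal axis) of every tested gene in 7 lists of neighbouring genes, for KO1 against WT (red) and KO2 against WT (blue); filled points passed an adjusted p under 0.05 and black bars are list medians. Each list holds rises and falls, and the medians lie between -0.16 and 0.15.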

How the data were processed

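Polyadenylated RNA of 9 Jurkat libraries was measured, 3 each of WT, KO1 and KO2, grouped by sample titles. The authors deposited a single FPKM table, 1 column for each library, with genes named by symbol. Per the submitters' processing notes, hg19, STAR 2.5.0b, Cufflinks 2.2.1 and bedtools 2.7.0 were used, with no role or order recorded. Which annotation was used, whether counting used strand and how libraries were scaled is not given in the sources used here. Text stood where values should be in 38 of 26228 rows, which were dropped.

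Since FPKM hold no counts, a count test was not applied. Genes with at least 1 FPKM in 3 or more libraries (11737) were kept, and limma 3.58.1 (R 4.3.3) was applied to log2(FPKM + 1), 1 mean per line, all libraries in 1 fit, with the prior variance following mean level and no covariate. Adjusted p-values run over all tested genes. The fit was also run on simulated data in which few genes changed, unlike these data, so that run does not bear on the calls here. Quantities summed over a family were compared by two-sided exact permutation tests.

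The members and lists were chosen with earlier results of these data known. Up to 4 genes per list were named, taking those called in both lines in 1 direction and ordering them by the size of the average log2 fold change. MBD2, GATAD2B, IDH1, IDH3A, IDH3B and GLUD1 were given besides these for comparison and are not in the counts of named genes. Some genes that this rule or a list holds are not reported here. FAM60A was matched for SINHCAF and all other listed symbols matched directly. Alternatives were other pseudocounts, filters, scalings and moderation, fits of only the groups compared, a replicate block, and leaving out each library.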

Additional observations from a re-analysis of the deposited data

Results flagged for a closer look

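In the test of KO2 against KO1 in the limma fit (adjusted p under 0.05), the edited lines differed for 2 of the 9 genes. They also differed for EZH2 and for 13 of the other named genes. This test was passed by 30.6% of all tested genes. The other named genes were picked for large changes against WT in both lines, so their number is not to be read against that share. The log2 fold change of KO2 against KO1 was -0.66 for DNMT3B, -0.25 for TET2 and -0.24 for EZH2. It was also below 0 for ZBTB24 (-0.24), CXXC5 (-0.74), UNG (-0.21), MAT2A (-0.16), MAT1A (-0.64), GRB10 (-1.02), IGF2R (-0.40), ZDBF2 (-0.74) and CCNE2 (-0.29). It was above 0 for USP7 (0.12), OGT (0.20), IDH2 (0.15) and IDH3G (0.29). The call for USP7 was lost without KO1 replicate 2 or any 1 of the KO2 libraries (adjusted p = 0.0513 to 0.0696), and with median centring (0.102) or no trend (0.0602). That for MAT2A was lost without KO1 replicate 3 (0.08) or KO2 replicate 1 (0.1) and with no trend (0.0541), and that for ZBTB24 without KO1 replicate 1 (0.0621), KO1 replicate 2 (0.0512) or KO2 replicate 1 (0.0674).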

How the results depend on the processing

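Of 513 log2 fold changes of the 9 genes under 19 alternatives, 505 kept their side of the threshold (and, where called, their direction), 5 newly passed and 3 no longer passed; no called value turned its direction. Of 1524 values of EZH2 and the other named genes, 1484 did so, 9 newly passed and 31 no longer passed. Direction could turn only under other pseudocounts or scalings, or without a library of the groups compared. The other alternatives change the p-value and leave the log2 fold change as it is. With 1 library left out, 6 to 7 of the 9 genes were called in KO1, 5 in KO2 and 1 to 3 between the edited lines, where TET2 was lost. All tested genes called then ran from 7339 to 7935, 6869 to 7741 and 2643 to 4081. The signs of the summed TET and DNMT FPKM and of both shares held under quantile normalization, median scaling and each library left out. Same-numbered libraries of different lines deviated together with correlations of -0.287 to 0.318. Differently numbered ones ran from -0.266 to 0.343, so replicate numbers were not taken as pairs. With the replicate block 6, 5 and 2 of the 9 genes were called, and 7694, 7339 and 3135 of all genes. FPKM hide the depth, so no counting error is given.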

Other observations

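Genes whose silence in somatic cells is tied to promoter methylation were mostly under 1 FPKM in every line. Of 20 listed germline genes, 19 were under 1 FPKM in all 9 libraries and 8 of these were listed at 0 in all 9, among them DAZL, SYCP1 and PIWIL1. The exception, the transketolase relative TKTL1, stood at 1.71, 1.7 and 2.04 FPKM for WT, KO1 and KO2 and was not called. Low values are common, as only 11737 of the 26190 genes with values reached 1 FPKM in 3 or more libraries. Methylation of the germline promoters was not measured. Of 28 listed imprinted genes, 14 were tested, with 7 rises and 3 falls in KO1 and 5 rises and 4 falls in KO2. Over all tested genes 67.5% were called in KO1 and 64.7% in KO2. The counts include genes that passed the filter only through edited libraries, such as GRB10, PLAGL1 and ZDBF2, each under 1 FPKM in WT. A call for these against WT could only be a rise. GRB10, an adaptor of insulin signalling, went from 0.0881 ± 0.0226 FPKM in WT to 7.47 ± 0.512 in KO1 and 3.18 ± 0.226 in KO2, and the zinc finger gene PLAGL1 from 0.421 ± 0.147 to 6.8 ± 0.353 and 5.72 ± 0.511. ZDBF2 rose from 0.657 ± 0.0702 to 3.32 ± 0.301 and 1.58 ± 0.146, and the receptor gene IGF2R fell from 73.2 ± 7.07 to 60 ± 4.64 and 45.1 ± 1.53. These are gene totals, so the allele in use was not seen.

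CDCA7 and HELLS, which form a remodelling complex needed for DNA methylation of repeats, were chosen after their values were seen. CDCA7 levels were 149 ± 9.69, 136 ± 7.22 and 86 ± 2.28 FPKM for WT, KO1 and KO2. It fell in KO2 (log2 fold change -0.78 ± 0.05, limma adjusted p = 5.29e-07) and was not called in KO1 (-0.13, adjusted p = 0.0545), and KO2 was below KO1 (-0.66, adjusted p = 1.2e-05). HELLS stood at 35.7 ± 2.72, 43.3 ± 1.05 and 35.8 ± 1.16 FPKM for WT, KO1 and KO2, and it rose in KO1 (0.27 ± 0.06, adjusted p = 0.00124) but was not called in KO2 (0.01, adjusted p = 0.924).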
